A study of Mus musculus with 42 samples.

Results

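Lysates of cultured mouse cortical neurons from a pair of labelled batches were compared for their microRNAs (miRNAs). The comparison used 12 of the 42 samples of the series, the 6 lysate libraries numbered 1, 2 and 3, which the labels place in batch x, and the 6 numbered 7, 8 and 9, which they place in batch z. Each number stood for 1 control and 1 BDNF library, so that each batch held 3 control and 3 BDNF lysates. The neurons came from NMRI mouse embryos of day 16 and no label gives a transgene or a mutation. They were plated in a medium with horse serum that was soon exchanged for a medium with B27 supplement, and after about a week they were given brain-derived neurotrophic factor (BDNF, a growth factor of neurons, 50 ng/ml for 20 min) or vehicle, washed, and collected 16 h later. Another 12 small RNA libraries, made from the small extracellular vesicles (EVs) of the same kind of culture and carrying the same numbers and batches, are used below only for comparison.

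The labels do not say what a batch is. The names of the libraries place batch x on lane 4 and batch z on lane 5 of the sequencer, so a difference between the cultures and a difference between the lanes cannot be told apart. Nothing says that the 3 numbers of a batch were separate cultures, and p-values then measure only the spread between these libraries, which may be technical. A lysate is a bulk sample, in which fewer cells of a type and less RNA per cell cannot be told apart.

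miRNAs are short RNAs cut from hairpin precursors and loaded into Argonaute proteins, which they guide to messenger RNAs mainly through the seed, bases 2 to 8 of the mature strand. A hairpin can give a strand from either arm, called 5p and 3p, and miRNAs with the same seed are counted as a family because they can bind many of the same targets. Many miRNAs are strongly tied to a cell type, such as miR-124 and miR-128 to neurons, miR-219 to oligodendrocytes, miR-142 to blood and microglia, and miR-34b/c and miR-449 to ciliated epithelia, among them the ependyma and choroid plexus that lie next to the cortex.

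The mature sequences of the miRNAs on which the results turn are given below from RefSeq (GRCm38.p6), 5′ to 3′, with the seed in capitals, because several of the differences were shared within a seed. Of the 549 miRNAs tested, 469 (85.4%) had a sequence in that table. The first pair shares the seed of the miR-34 and miR-449 family, the next pair that of the miR-148 and miR-152 family, the next pair that of miR-7, the next trio that of let-7, and the pair after it that of miR-132 and miR-212. The rest are described alone: the neuronal miR-128-3p and miR-137-3p, both strands of miR-330, the immune miR-146a-5p, the epithelial miR-200a-3p, and a pair of entries of doubtful status.
miR-34b-5p: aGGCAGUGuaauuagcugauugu
miR-449a-5p: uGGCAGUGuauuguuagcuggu
miR-148a-3p: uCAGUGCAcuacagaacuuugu
miR-152-3p: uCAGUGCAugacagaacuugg
miR-7a-5p: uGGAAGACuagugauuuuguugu
miR-7b-5p: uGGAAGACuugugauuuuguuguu
let-7c-5p: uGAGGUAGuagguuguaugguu
let-7d-5p: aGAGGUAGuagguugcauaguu
let-7k: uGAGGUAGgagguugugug
miR-132-3p: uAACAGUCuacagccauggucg
miR-212-3p: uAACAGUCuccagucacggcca
miR-128-3p: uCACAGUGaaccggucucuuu
miR-137-3p: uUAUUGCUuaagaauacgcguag
miR-330-3p: gCAAAGCAcagggccugcagaga
miR-330-5p: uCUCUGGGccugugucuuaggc
miR-146a-5p: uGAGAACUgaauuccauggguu
miR-200a-3p: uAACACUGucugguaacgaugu
miR-690: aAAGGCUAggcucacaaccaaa
miR-6240: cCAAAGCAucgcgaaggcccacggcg

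The batch x lysates held 4569854 to 7055165 miRNA counts and the batch z lysates 7412119 to 10260819, so that every batch z library was deeper. Between 805 and 891 miRNA entries had a count in a batch x library and between 868 and 936 in a batch z library. After every library was thinned to 4569854 counts, the means were 829 ± 22.7 entries in x and 815 ± 5.09 in z (SD over the 6 libraries of a batch). With 3 numbers against 3, the smallest p an exact permutation test can give is 0.1. A principal component analysis of the miRNAs of at least 20 CPM (counts scaled to a common library size with TMM factors) placed 57.1% of the variance on a first axis and 30.5% on a second. On the first axis the batch x libraries lay between -6.93 and 0.12 and the batch z libraries between 1.30 and 5.42, without overlap. This axis also varied with treatment, so its share of the variance is not that of batch alone. In x the controls lay at -6.93 to -3.77 and the BDNF libraries at -2.54 to 0.12. In z the controls lay at 1.30 to 3.56 and the BDNF libraries at 3.49 to 5.42. Within each batch the control libraries lay above the BDNF libraries on the second axis. For the 263 miRNAs of at least 20 CPM, batch took a median of 34.0% of a miRNA's sum of squares, treatment 34.4%, their interaction 2.08% and the spread within groups 20.6%. The batch took the largest part for 112 of these miRNAs and the treatment for 107. Over all 549 miRNAs tested the spread within groups had the largest median, at 30.8%, against 23.6% for batch, 20.3% for treatment and 2.38% for their interaction. Batch was largest for 196 of the 549, the spread within groups for 194 and treatment for 154.

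**Figure D1:**
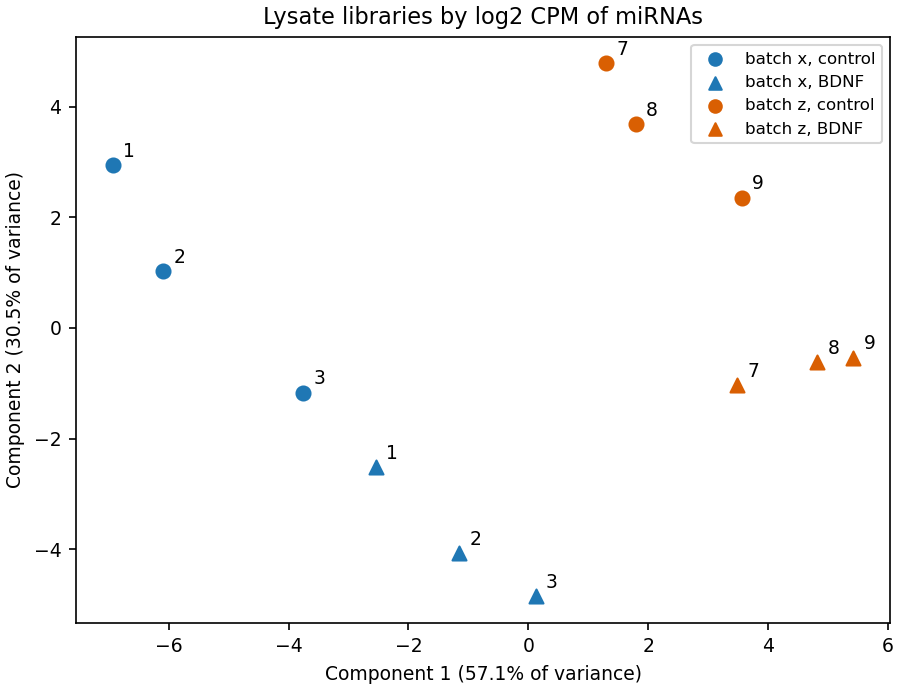
Principal components of the log2 CPM of the 12 lysates over the miRNAs of at least 20 CPM, with component 1 (57.1% of the variance) on the horizontal and component 2 (30.5%) on the vertical axis; each point is a library, labelled with its number. The batches do not overlap on component 1, and control (circles) lies above BDNF (triangles) within each batch on component 2. Component 1 also varies with treatment, with control left of BDNF in batch x.

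Of the 549 miRNAs tested, 239 (43.5%) differed between the batches at an adjusted p under 0.05 in edgeR's quasi-likelihood test with treatment as a covariate. Of these, 126 (23.0% of those tested) were higher in z and 113 (20.6%) were lower. In 113 miRNAs (20.6%) the 6 libraries of a batch did not overlap those of the other, and all of these were among the calls. Most differences were small, with a median absolute log2 difference of 0.27 over all miRNAs tested and 0.54 over the calls. Differences of over 2-fold numbered 11 among the higher calls (2.00%) and 39 among the lower (7.10%). Most were in rare miRNAs, since the 263 of at least 20 CPM held 1 of the higher and 8 of the lower. In the control lysates alone and in the BDNF lysates alone, 225 of the 225 calls with a value in both had the same sign. The calls were made in these same libraries, so this agreement was largely fixed in advance and is not a replication. The balance of the directions rested on the scaling. The TMM factors used here were 1.06 ± 0.0742 in x and 0.948 ± 0.0678 in z, and with library totals alone the calls became 67 higher and 163 lower, with upper-quartile scaling 75 higher and 143 lower. The median over all miRNAs moved by -0.16 and -0.14 on the log2 scale under these scalings, so a log2 difference near that size has no firm sign, and directions below are relative to the TMM scale.

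The neuronal markers miR-9-5p and miR-124-3p were present in every lysate of both batches, the first at a far higher level than the second. miR-9-5p, a miRNA of neural progenitors and neurons, alone made up 40.6 ± 1.80% of the counts in x and 38.5 ± 1.19% in z. Its level ran from 361849 through a median of 376462 to 446223 CPM in x and from 377170 through 408398 to 442791 CPM in z. The batches overlapped, and the log2 difference of 0.08 ± 0.05 (SE) did not pass the test (adjusted p = 0.214). miR-124-3p, the miRNA most tied to neurons, ran from 986.0 through 1377.0 to 2116.8 CPM in x and from 1236.3 through 1613.9 to 1912.7 CPM in z, and its log2 difference of 0.11 did not pass either (adjusted p = 0.367).

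miR-128-3p was the most abundant miRNA with a large difference. It is made from hairpins inside R3hdm1 (chromosome 1) and Arpp21 (chromosome 9) and in neurons acts on transcripts for excitability. Its levels were 63723, 72758 and 86633 CPM (lowest, median, highest) in x and 114724, 147855 and 188783 CPM in z. Every z library exceeded every x library, by 2.00-fold in the fit (95% interval 1.78 to 2.24, adjusted p = 3.73e-08). Its share of all counts was 7.73 ± 0.603% in x and 13.8 ± 1.60% in z. The 5p arm of the Arpp21 hairpin, miR-128-2-5p, chosen after its value was seen, was also higher, by 1.21 ± 0.14 on the log2 scale (adjusted p = 3.10e-06).

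miR-137-3p, a regulator of synapse genes and of neuronal maturation, ran from 74.4 through 103.8 to 147.8 CPM in x and from 154.7 through 190.5 to 225.5 CPM in z. The groups did not overlap and the log2 difference was 0.86 ± 0.09 (adjusted p = 1.39e-06), with its 5p arm at 0.73 ± 0.13 (adjusted p = 1.78e-04). Not every neuronal miRNA was higher. The shares over all miRNAs tested were 23.0% higher and 20.6% lower. Of 22 miRNAs listed as neuron-enriched, all tested, 9 were higher in z, 5 were lower and 8 did not pass, with a median log2 difference of 0.11 against 0.04 over all miRNAs tested; the median became -0.05 with library totals alone and -0.02 with upper-quartile scaling. The 5 lower ones included the 3 strands of miR-129, which acts on potassium channel transcripts, at -0.49 to -0.74, as well as miR-383-5p at -0.54 and miR-344d-3p at -0.36.

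miR-7, which is taken up by the circular RNA Cdr1as in the brain, went the other way. miR-7a-5p ran from 53993 through 60392 to 84744 CPM in x and from 36407 through 41393 to 48511 CPM in z. Its share of the counts was 6.87 ± 0.886% in x and 3.90 ± 0.306% in z, and the log2 difference was -0.65 ± 0.08 (adjusted p = 6.67e-06). miR-7b-5p, from another locus with the same seed, had 2763, 2979 and 3547 CPM in x and 1467, 1581 and 1666 CPM in z. For both miR-7 members every x library was above every z library, and for miR-7b-5p the level in x was 1.94-fold that in z (95% interval 1.80 to 2.09, adjusted p = 1.41e-09). The pair differ in few bases after the seed, and reads could be split between them.

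**Figure D2:**
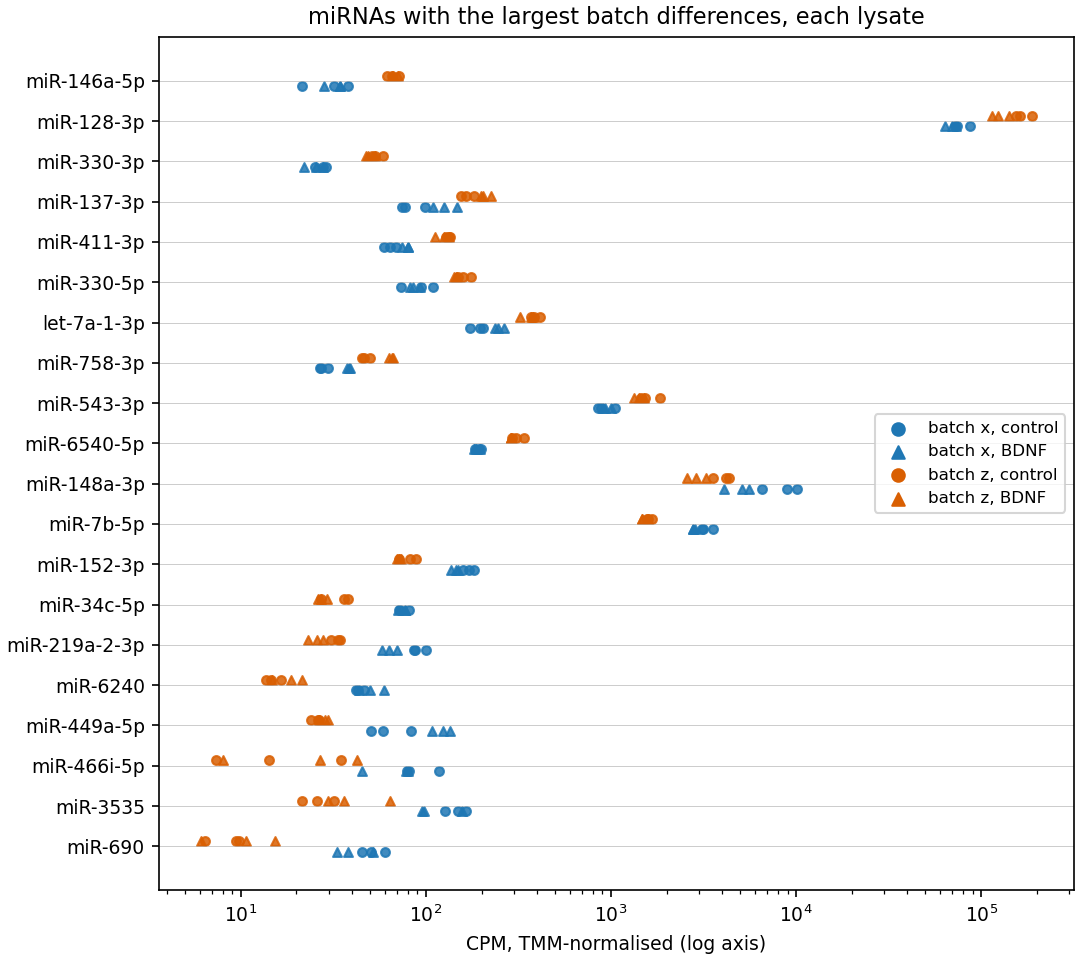
TMM-normalised CPM (horizontal, log axis) of the 10 miRNAs with the highest and the 10 with the lowest log2 difference among calls of at least 20 CPM, each lysate as a point, blue for batch x and orange for batch z, circles for control and triangles for BDNF. The batches do not overlap in 19 of the 20, miR-148a-3p being the exception, and in miR-449a-5p the x libraries split by treatment.

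The miRNAs of ciliated epithelia were lower in z. All 7 tested strands of the miR-34b/c and miR-449 loci were called lower, at log2 differences of -0.71 to -1.82. miR-449a-5p, which lies within Cdc20b on chromosome 13 and is abundant where cells build many cilia, had 50.5, 95.5 and 134.8 CPM in x and 23.9, 26.5 and 29.6 CPM in z. Every x library was above every z library, and the level in x was 3.32-fold that in z (95% interval 2.66 to 4.15, adjusted p = 3.03e-07). Within x the 3 BDNF lysates (108.2, 123.0 and 134.8 CPM) lay above the 3 controls (50.5, 58.6 and 82.8 CPM), while in z the controls had 23.9 to 26.6 CPM and the BDNF lysates 26.5 to 29.6 CPM. miR-34c-5p, its partner in ciliogenesis and a target of p53, had 71.02, 74.6 and 80.8 CPM in x and 26.2, 28.3 and 37.99 CPM in z, a log2 difference of -1.29 ± 0.09 (adjusted p = 1.62e-08) with no overlap.

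The weaker strands of these loci moved with the main ones. miR-449a-3p was at -1.82 ± 0.28, miR-449c-5p at -1.68 ± 0.18, miR-34b-5p at -1.19 ± 0.12, miR-34c-3p at -1.28 ± 0.25 and miR-34b-3p at -0.71 ± 0.19, with adjusted p from 7.72e-07 (miR-34b-5p) to 0.00479 (miR-34b-3p). miR-449a-3p was not in the list and is the strand opposite miR-449a-5p. Of the 15 tested miRNAs listed as epithelial, choroid plexus or ciliated, 8 were lower, 2 were higher and 5 did not pass, with a median of -0.29, and the count of lower ones was 8 or 9 under each of the 4 scalings. Over all miRNAs tested, 20.6% were lower and 23.0% higher. miR-204-5p, high in choroid plexus, was lower by a small amount, with 169.8 to 202.9 CPM in x and 135.2 to 173.2 CPM in z (log2 difference -0.29 ± 0.07, adjusted p = 0.00183).

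The 2 higher members were of another epithelial family. miR-200a-3p and miR-200b-3p, which hold cells in an epithelial state, lie within 1 kb of each other on chromosome 4. miR-200a-3p had 0, 0.38 and 0.83 CPM in x and 0.94, 1.80 and 2.63 CPM in z, and its log2 difference of 2.06 ± 0.37 passed the test (adjusted p = 2.39e-04). miR-200b-3p had 0.29, 0.86 and 1.18 CPM in x and 1.77, 2.57 and 3.51 CPM in z (1.69 ± 0.30, adjusted p = 2.03e-04). These levels rest on a mean of 2.67 and 15.5 counts per library for miR-200a-3p in x and z, and on 5.00 and 22.3 counts for miR-200b-3p. The summed level of the 3 defining markers fixed for epithelium and choroid plexus (miR-200b-3p, miR-204-5p and miR-449a-5p) was 246.8 to 307.9 CPM in x and 163.4 to 199.3 CPM in z, and whether the number of such cells differed was not tested.

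In the oligodendrocyte lineage the members went in both directions. miR-219a-2-3p, from a hairpin that drives oligodendrocyte differentiation, had 58.2, 78.0 and 99.7 CPM in x and 23.03, 29.3 and 34.4 CPM in z. The groups did not overlap and the level in x was 2.62-fold that in z (95% interval 2.33 to 2.95, adjusted p = 2.03e-09). miR-219a-5p, from the same family of hairpins, was lower by -0.62 ± 0.18 (adjusted p = 0.00808). miR-338-5p was higher instead, with 16.9, 23.03 and 25.1 CPM in x and 29.7, 34.9 and 40.7 CPM in z (0.64 ± 0.11, adjusted p = 1.07e-04). The lineage marker miR-338-3p stood at 1.79 to 3.29 CPM in x and 1.35 to 4.43 CPM in z and did not pass (0.13 ± 0.21, adjusted p = 0.639). Of the 6 tested list members 2 were higher, 2 lower and 2 did not pass, against 23.0% higher and 20.6% lower over all miRNAs. The summed level of miR-219a-5p, miR-219a-2-3p and miR-338-3p was 68.2 to 105.4 CPM in x and 30.4 to 39.4 CPM in z, nearly all of it from miR-219a-2-3p.

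Immune and vascular miRNAs went in both directions. miR-146a-5p, which damps signalling to NF-kB and is found in glia and immune cells, had 21.5, 33.1 and 38.2 CPM in x and 61.9, 65.7 and 71.4 CPM in z. It was the only miRNA of at least 20 CPM called more than 2-fold higher in z, at 2.13-fold (95% interval 1.82 to 2.51, adjusted p = 5.66e-07), and the batches did not overlap. miR-142a-5p, a strand tied to blood cells and microglia, had 0.17, 0.29 and 0.50 CPM in x and 0.69, 1.68 and 2.13 CPM in z, on means of 2.00 and 12.5 counts (2.16 ± 0.41, adjusted p = 3.43e-04). The markers of blood and microglia (miR-142a-3p, miR-142a-5p, miR-223-3p and miR-451a) summed to 0.51 to 1.64 CPM in x and 1.57 to 5.65 CPM in z, and miR-223-3p had 0 counts in 8 of the 12 libraries. The endothelial miR-126a-3p was higher, with 115.6 to 129.2 CPM in x and 161.2 to 194.9 CPM in z (0.55 ± 0.06, adjusted p = 1.39e-06). The mesenchymal miR-199a-5p was lower, with 26.1 to 40.4 CPM in x and 17.0 to 25.4 CPM in z (-0.63 ± 0.09, adjusted p = 3.07e-05). Of the lists, microglia, blood and immune had 3 higher and 2 lower of 7 tested, vascular and mesenchymal 4 higher and 6 lower of 19, and astrocyte and reactive glia 2 higher and 3 lower of 8. Calls in both directions were also general, at 23.0% higher and 20.6% lower over all miRNAs tested. miR-146a-5p and miR-449a-5p each stand in more than 1 list. The part of other cell types in these differences was not tested.

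The miR-148 and miR-152 family was lower in z in all 3 of its members of at least 20 CPM. Of all 263 miRNAs of at least 20 CPM, 60 were called lower and 87 higher, and over all miRNAs tested 20.6% were lower and 23.0% higher. miR-152-3p, within Copz2 on chromosome 11, had 137.1, 153.7 and 182.9 CPM in x and 70.04, 72.5 and 88.8 CPM in z (-1.04 ± 0.07, adjusted p = 4.94e-09). miR-148a-3p had 4104, 6066 and 10157 CPM in x and 2561, 3410 and 4350 CPM in z, which overlapped (-0.92 ± 0.12, adjusted p = 1.47e-05). Within each batch its controls lay above its BDNF lysates in the plot of values by library. miR-148b-3p fell least, at -0.22 ± 0.05 (adjusted p = 0.00242). The opposite strands miR-152-5p (-1.26 ± 0.20) and miR-148a-5p (-1.23 ± 0.14) were lower as well.

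The let-7 family, which rises as neural cells mature and holds back progenitor genes, was higher in z. Among all miRNAs tested, 23.0% were higher and 20.6% lower. Of 10 tested members 7 were higher, none was lower and 3 did not pass, with a median log2 difference of 0.26 against 0.04 over all miRNAs; with library totals alone 4 were higher and 1 was lower, and with upper-quartile scaling 5 were higher. let-7d-5p had 1456, 1623 and 2021 CPM in x and 2309, 2463 and 2773 CPM in z (0.59 ± 0.06, adjusted p = 1.28e-06). let-7b-5p was at 0.57 ± 0.06 and let-7a-5p at 0.42 ± 0.05, neither with overlap. The most abundant member, let-7c-5p, had 43288, 50817 and 66870 CPM in x and 54369, 61122 and 71786 CPM in z. These overlapped, and its log2 difference of 0.23 ± 0.06 passed here (adjusted p = 0.00796) but not with either of those scalings. let-7k, a rare entry at 0.68 to 2.22 CPM in x and 2.44 to 5.50 CPM in z, had the highest value of the family (1.29 ± 0.22, adjusted p = 1.56e-04). let-7a-1-3p, whose sequence is shared with let-7c-2-3p and is counted once, had 173.2, 219.3 and 265.7 CPM in x and 322.7, 374.7 and 412.5 CPM in z (0.77 ± 0.09, adjusted p = 2.26e-06). Members of the family differ by few bases, and reads can be assigned to the wrong one.

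The Dlk1-Dio3 cluster, a large imprinted group of miRNAs on mouse chromosome 12 that is read from the maternal copy and is rich in neuronal and synaptic miRNAs, was also higher in z. Of 51 listed members 50 were tested, and 22 were higher, 1 was lower (miR-380-5p, -0.31 ± 0.11, adjusted p = 0.0247) and 27 did not pass, against 23.0% higher and 20.6% lower over all miRNAs. The median of these 50 members was 0.23. With library totals alone it was 0.07, with 13 higher and 5 lower, and with upper-quartile scaling 0.10, with 12 higher and 3 lower. miR-411-3p is not among the 50 and is the strand opposite the listed miR-411-5p. It had 59.4, 71.6 and 79.8 CPM in x and 112.6, 130.5 and 135.7 CPM in z (0.85 ± 0.08, adjusted p = 3.22e-07). miR-758-3p had 26.8, 33.4 and 38.8 CPM in x and 45.2, 56.4 and 66.2 CPM in z (0.76 ± 0.07, adjusted p = 1.44e-07). miR-543-3p, the most abundant of these, had 855, 916 and 1051 CPM in x and 1326, 1474 and 1849 CPM in z (0.68 ± 0.07, adjusted p = 1.18e-06). None of the 3 overlapped between the batches.

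Counts by position in GRCm38.p6 cover the tested miRNAs with a sequence in the RefSeq table and leave out others of the same loci. The 20 such miRNAs between chr12:109563710-109595387, the part nearer Dlk1, held 10 calls higher and 1 lower, with a median of 0.28. The 53 such miRNAs of the larger group at chr12:109709065-109747949 held 17 higher and 2 lower, with a median of 0.21. Some smaller loci are given as examples, chosen after their values were seen. The 3 strands counted at the miR-34b/c locus (chr9:51103044-51103632), without miR-34c-5p, were all lower with a median of -1.19, and so were the 3 at the miR-449 locus (chr13:113036008-113037610) with a median of -1.73. At the let-7d, let-7f-1 and let-7a-1 locus (chr13:48536024-48538260) 3 of 5 were higher, and at the miR-106b-25 locus (chr5:138165332-138165807), which lies in the cell-cycle gene Mcm7, 3 of 6 were lower and none was higher. In contrast, 1 was higher and 1 lower of 3 at the let-7f-2 and miR-98 locus, and none of 4 was called at the locus of miR-296. The miR-17-92 cluster and its paralogs together had 3 lower, none higher and 9 not passing of 12 tested, with a median of -0.00. Against these counts by locus and cluster stand 23.0% higher and 20.6% lower over all miRNAs tested.

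**Figure D3:**
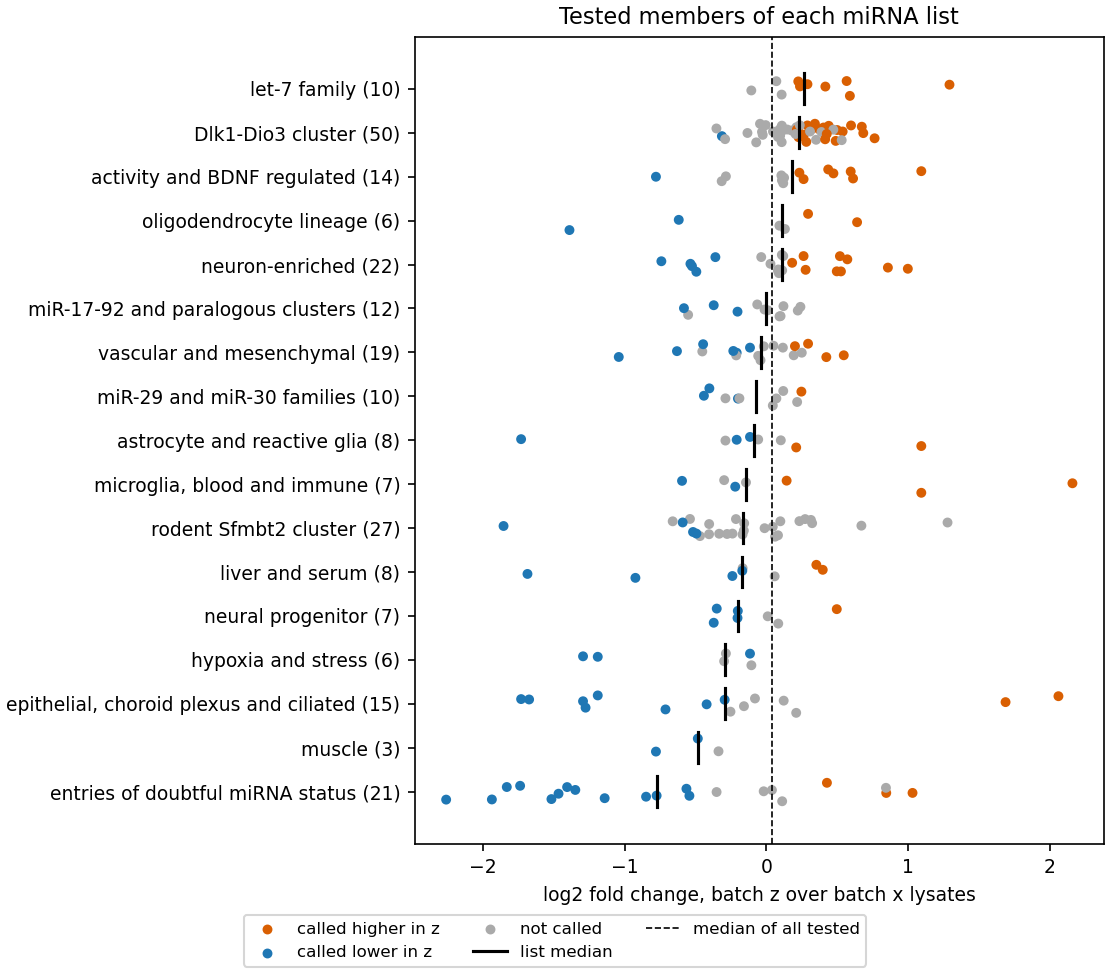
Log2 difference (batch z over batch x lysates, horizontal) of every tested member of each miRNA list, with the number tested in brackets; orange points were called higher in z, blue points lower and grey points not called, the solid bar is the list median and the dashed line the median over all miRNAs tested (0.04). let-7 and Dlk1-Dio3 members lie mostly right of the line and the entries of doubtful status mostly left; the medians of the neuron-enriched and oligodendrocyte lists turn negative with library totals alone or upper-quartile scaling.

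Some miRNAs outside these lists were among the largest. Both strands of miR-330, within Eml2 on chromosome 7, were higher, miR-330-3p with 21.9, 26.6 and 28.8 CPM in x and 47.3, 51.8 and 58.6 CPM in z (0.99 ± 0.08, adjusted p = 7.06e-08) and miR-330-5p at 0.77 ± 0.08 (adjusted p = 1.07e-06). miR-6540-5p, from a hairpin within Gap43, the gene of a growth cone protein, had 183.0 to 197.4 CPM in x and 286.7 to 339.4 CPM in z, 0.66 ± 0.06 higher (adjusted p = 1.08e-07). miR-375-3p, a miRNA of endocrine cells, was lower, with 9.16 to 17.7 CPM in x and 3.31 to 5.18 CPM in z (-1.69 ± 0.16, adjusted p = 3.33e-07). The muscle miRNAs miR-206-3p and miR-1a-3p were lower by -0.78 and -0.48, at mean levels of 2.50 and 18.8 CPM in x. Among the miR-29 and miR-30 families, with 3 lower and 1 higher of 10 tested, miR-30a-5p was lower by -0.44 ± 0.05 (adjusted p = 4.48e-06), and miR-30a-3p by -0.40 ± 0.09. Of the 7 tested progenitor miRNAs 4 were lower by small amounts, miR-93-5p the most at -0.37 ± 0.10, and miR-9-3p was higher at 0.50 ± 0.09. In the hypoxia and stress list 3 of 6 were lower, 2 of them the 5p strands of miR-34b and miR-34c. Beside these lists, the shares over all miRNAs tested were 23.0% higher and 20.6% lower.

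Among miRNAs of at least 20 CPM, the lowest values were those of miR-690 and miR-3535, entries that may not be miRNAs. The list of entries of doubtful status, whose sequences have been questioned as fragments of other RNAs, held 21 that were tested, of which 13 were lower in z, 3 were higher and 5 did not pass, with a median of -0.77. miR-690, on chromosome 16 within Fgf12, had 33.1, 47.8 and 60.1 CPM in x and 6.09, 9.59 and 15.3 CPM in z, so that the level in x was 4.79-fold that in z (95% interval 3.52 to 6.52, adjusted p = 6.75e-07). miR-3535 had 94.7, 137.9 and 164.3 CPM in x and 21.4, 30.8 and 63.7 CPM in z (-1.94 ± 0.25, adjusted p = 3.80e-05), and miR-6240 had 42.1, 44.9 and 59.1 CPM in x and 13.7, 15.6 and 21.5 CPM in z (-1.52 ± 0.10, adjusted p = 1.01e-08). None of the 3 overlapped between the batches. The entries of the list together took 0.127 ± 0.0139% of the counts in x and 0.0776 ± 0.00422% in z. miR-466i-5p, listed with the repeat-rich rodent cluster of Sfmbt2 although RefSeq places the opposite strand of its hairpin on chromosome 13 within Cdk13, had a difference of similar size (-1.86 ± 0.44, adjusted p = 0.00509) with a larger SE, and had 45.4 to 117.2 CPM in x and 7.35 to 42.3 CPM in z. Of that list 4 of 27 tested were lower and none was higher, against 20.6% lower and 23.0% higher over all miRNAs, and its near-identical copies share reads. Whether RNA quality or the handling of short fragments differed between the batches was not tested.

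In 152 hairpins both arms were tested, with the same sign in 98 and opposite signs in 54, and with a Spearman correlation of 0.44 between the arms across hairpins, which share libraries and are not independent. Both arms were called in 30 hairpins, in the same direction in 26 and in opposite directions in 4 (miR-28a, miR-98, miR-140 and miR-380). In miR-28a the 5p strand was higher (0.34 ± 0.08) and the 3p strand lower (-0.28 ± 0.09). Among the 26 seeds shared by at least 2 miRNAs of at least 20 CPM, 13 held at least 2 calls, and 11 of these 13 held calls of 1 direction. The largest was the let-7 seed, with 6 of 9 higher and none lower. Most of the 13 held only 2 calls, and whether the agreement of arms or of seeds exceeded chance was not tested. Over all miRNAs tested 23.0% were higher and 20.6% lower, and of the 263 of at least 20 CPM 87 were higher and 60 lower. In miR-6240 and miR-330-3p the seed letters are the same, while their differences were -1.52 and 0.99.

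The Spearman correlation of the log2 difference with GC content was -0.00 across 469 miRNAs and -0.05 across the 223 of at least 20 CPM, and that with length was -0.10 across the 469. The median GC content was 47.7% in the calls higher in z, 47.8% in the calls lower in z and 47.8% in the rest. The correlation with abundance was 0.10. In EVs the corresponding correlation with GC content was 0.36 across 350 miRNAs. Each correlation runs across miRNAs that share the same 12 libraries, which were the lysates, or the EVs for the last value.

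BDNF raised the activity-regulated miR-132 and miR-212 in both batches, by more in z for a pair of strands. They lie together on chromosome 11 (chr11:75173403-75173744), are induced through CREB, and shape dendrites and synapses. Of 549 miRNAs, 2 (0.364%) had a BDNF effect that differed between the batches in the interaction test, both of them 3p strands with the seed AACAGUC, and 31 had an unadjusted p under 0.05. miR-132-3p had 300.7, 333.3 and 373.6 CPM in the x controls, 610.9, 620.9 and 663.5 CPM with BDNF in x, 349.9, 354.0 and 368.3 CPM in the z controls and 1057, 1149 and 1202 CPM with BDNF in z. The controls overlapped while the BDNF lysates of z lay far above those of x. In fits of each batch alone the BDNF effect was 0.91 ± 0.10 in x and 1.70 ± 0.07 in z on the log2 scale. The difference of 0.76 ± 0.12, from the interaction fit of all 12 lysates, passed the test (adjusted p = 0.00567).

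miR-212-3p had 21.4, 29.3 and 32.1 CPM in the x controls and 44.05, 44.7 and 49.1 CPM with BDNF in x. In z it had 12.3, 15.3 and 15.9 CPM in the controls and 48.2, 52.5 and 54.0 CPM with BDNF. For this strand the controls of z lay below those of x, and the BDNF lysates were closer. The effect was 0.74 ± 0.16 in x and 1.86 ± 0.12 in z, with a difference of 1.09 ± 0.20 (adjusted p = 0.0196), which no longer passed when any of 5 single libraries was left out (adjusted p 0.0671 to 0.0939): control 2 or BDNF 2 of x, or control 8, BDNF 7 or BDNF 9 of z. For the 5p strands the difference between the batches did not pass: miR-132-5p had an effect of 1.27 ± 0.10 in x and 1.49 ± 0.08 in z (difference 0.19 ± 0.12, adjusted p = 0.693), and miR-212-5p 0.64 ± 0.12 in x and 0.97 ± 0.09 in z (difference 0.29 ± 0.15, adjusted p = 0.656).

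Other candidates for a differing BDNF effect did not pass in this fit, but some did in others. miR-449a-5p had an effect of 0.93 ± 0.18 in x and 0.17 ± 0.11 in z (difference -0.79 ± 0.22, adjusted p = 0.337), and let-7a-1-3p 0.39 ± 0.10 in x and -0.09 ± 0.08 in z (difference -0.51 ± 0.13, adjusted p = 0.204). With a replicate block both passed (adjusted p = 0.0148 for each). let-7a-1-3p also passed with DESeq2 (-0.45, adjusted p = 0.0428), and miR-449a-5p when control 3 of x was left out (-0.96, adjusted p = 0.00301). miR-3535 differed by 1.04 ± 0.37 (adjusted p = 0.448) and miR-26a-5p by -0.29 ± 0.09 (adjusted p = 0.345). With treatment as a covariate, 7 of the 14 tested activity and BDNF regulated miRNAs were higher in z, 1 was lower (miR-206-3p) and 6 did not pass, with a median of 0.18, against 23.0% higher over all miRNAs. With library totals alone 4 were higher and 2 lower (median 0.01), and with upper-quartile scaling 4 were higher and 1 lower (median 0.05). The 7 higher ones included miR-132-3p, whose control lysates overlapped between the batches while its BDNF lysates did not.

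**Figure D4:**
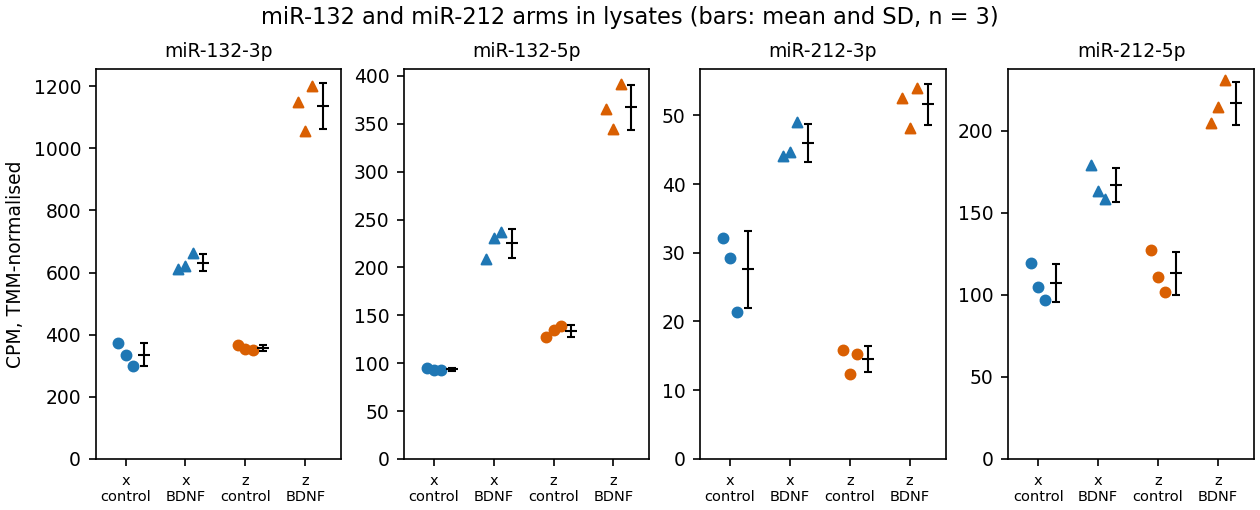
TMM-normalised CPM (vertical, linear from 0) of the strands of miR-132 and miR-212 in the control (circles) and BDNF (triangles) lysates of batch x (blue) and batch z (orange), with the mean and SD of 3 libraries as black bars. miR-132-3p reaches 1057 to 1202 CPM with BDNF in z against 610.9 to 663.5 CPM in x, and miR-212-3p starts lower in the z controls than in the x controls.

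The batch difference of the lysates was not that of the EVs. EV libraries held 1758624 to 3945963 counts in x and 377116 to 1028029 in z, so that depth ran opposite to that of the lysates. In the EVs 221 of 411 tested (53.8%) were called, 106 higher in z (25.8%) and 115 lower (28.0%). Of the 198 lysate calls that were tested in EVs, 58 were called in the same direction, 57 in the opposite direction and 83 were not called. Across the 405 miRNAs tested in both, the Spearman correlation of the differences was -0.04 and Pearson's was -0.01. In the fit of all 24 libraries the batch difference itself differed between EVs and lysates for 255 of 573 (44.5%), with 98 higher in EVs (17.1%) and 157 lower (27.4%). This split moved with the scaling, to 135 and 127 with the size factors of DESeq2, which moved the median by 0.19.

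The 10 named miRNAs, the 5 with the largest difference in each direction, were chosen for that difference and had opposite signs in the 2 compartments, although the lysate difference did not pass for miR-122-5p, miR-19b-3p and miR-369-3p (adjusted p = 0.291, 0.211 and 0.0581). miR-148a-3p had the largest, with 3302, 4441 and 5366 CPM in the EVs of x and 8122, 17856 and 36672 CPM in those of z, while the lysates fell (difference 3.04 ± 0.33, adjusted p = 2.96e-07; CPM here are scaled over all 24 libraries). miR-219a-2-3p had 54.2, 62.4 and 99.1 CPM in the EVs of x and 97.5, 139.4 and 274.9 CPM in those of z, against its 2.62-fold lower level in the z lysates (difference 2.57 ± 0.21, adjusted p = 4.12e-12). In the vascular miR-143-3p (2.24 ± 0.14), miR-3473e (2.22 ± 0.37) and the liver and serum miR-122-5p (2.07 ± 0.21) the EVs of z were higher as well. miR-122-5p had 1847, 2601 and 3275 CPM in the EVs of x and 7173, 9124 and 12651 CPM in those of z, while in the lysates it had 37.3 to 71.02 CPM in x and 35.03 to 60.4 CPM in z.

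The neuronal miR-137-3p went the other way, higher in the lysates and lower in the EVs of z. Its EV levels were 207.3, 290.2 and 311.3 CPM in x and 70.8, 84.6 and 122.8 CPM in z (difference -2.40 ± 0.18, adjusted p = 7.78e-13). miR-19b-3p (-2.46 ± 0.45), miR-326-3p (-2.41 ± 0.21), miR-324-5p (-2.08 ± 0.26) and miR-369-3p of the Dlk1-Dio3 cluster (-1.86 ± 0.34) were likewise lower in the EVs of z relative to the lysates. Other members differed in the same direction in both compartments. miR-146a-5p was at 1.09 in lysates and 2.75 in EVs, miR-330-3p at 0.99 and 1.21, miR-449a-5p at -1.73 and -1.24 and miR-142a-5p at 2.16 and 1.72, each called in both. For miR-330-3p, miR-449a-5p and miR-142a-5p the difference between the compartments did not pass (adjusted p = 0.565, 0.437 and 0.429). It passed for miR-146a-5p, which was higher in EVs than in lysates by 1.57 ± 0.18 (adjusted p = 4.57e-09).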

How the data were processed

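Small RNA was sequenced from 12 lysate and 12 EV samples of cortical neurons; per the labels' protocols, libraries were made with a NEBNext kit from 150 ng of RNA and run on a HiSeq2000. The authors deposited raw counts for each mature miRNA. The submitters' processing notes name mm10, cutadapt 1.8.1, DESeq2 without a version, and CASAVA 1.8.2 and 1.8, while which aligner, counter and miRNA release were used is not given in the sources used here. No molecular identifiers are named, so counts can include PCR copies. The table had 1915 entries, 542 at 0 in every library. In 13 sets with identical counts (total of at least 20) 16 duplicates were counted once, which left 1899, of which 1298 had a count in a lysate and 616 in all 12.

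Batches were compared with the quasi-likelihood F test of edgeR (edgeR 4.0.16, R 4.3.3, robust, TMM, expression filter with a minimum count of 10), treatment as a covariate, Benjamini-Hochberg adjustment over all miRNAs tested and a threshold of 0.05. The interaction of treatment and batch was fitted on the 12 lysates and that of compartment and batch on all 24 libraries. BDNF effects within a batch came from a separate fit of its 6 lysates, so they need not subtract to the interaction. The same holds for batch differences within lysates or within EVs. CPM are TMM-normalised, SE is the log2 difference over the square root of F, and intervals are at 95%. Sums of squares and components used log2(CPM + 1). Library measures were compared by exact two-sided permutation of 3 numbers against 3. limma 3.58.1 and DESeq2 1.42.0 were used for alternatives.

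miRNAs were named by rule: the 10 highest and 10 lowest calls of at least 20 CPM, 2 members per list (the calls of greatest change), the 5 most abundant, and their other arms; for BDNF the 3 smallest p in each direction and every strand of miR-132 and miR-212; for EVs against lysates the 5 largest calls in each direction. Further examples were picked with their values in view. The compared groups, the lists and the tests were chosen with earlier results of these data known. Lists are described by counts and medians only. Alternatives were other scalings, filters, DESeq2, thinning, treatments alone, a replicate block, all 24 libraries, and each library left out. Hippocampal RNA libraries were not used here.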

Additional observations from a re-analysis of the deposited data

Results flagged for a closer look

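In 6 of the 132 batch groups of 6 lysates examined, 1 library stood apart from the other 5, where chance gives about 1 in 20. In batch x, control 2 had the highest miR-9-5p at 446223 CPM (the other 5 had 361849 to 381009 CPM) and the lowest miR-338-5p at 16.9 CPM (others 22.9 to 25.1 CPM). In batch z, BDNF 7 had the highest miR-3535 at 63.7 CPM (others 21.4 to 36.2 CPM) and control 7 the highest miR-375-3p at 5.18 CPM (others 3.31 to 4.01 CPM). Control 8 of z had the lowest miR-99a-3p at 1.01 CPM (others 2.13 to 2.75 CPM) and BDNF 8 of z the highest miR-93-3p at 8.85 CPM (others 4.59 to 6.12 CPM).

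The BDNF effect differed between the batches for miR-132-3p by 0.76 and for miR-212-3p by 1.09 on the log2 scale, as tested by the interaction. The signed log2 difference of z over x was compared between EVs and lysates by the interaction of compartment and batch. It was higher in EVs for miR-148a-3p by 3.04, miR-219a-2-3p by 2.57, miR-143-3p by 2.24, miR-3473e by 2.22 and miR-122-5p by 2.07. In each of these the difference was positive in EVs and negative in lysates, without passing in lysates for miR-122-5p. For miR-19b-3p it was lower in EVs, at -2.46, and likewise for miR-326-3p at -2.41, miR-137-3p at -2.40, miR-324-5p at -2.08 and miR-369-3p at -1.86.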

How the results depend on the processing

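The 239 calls became 147 where only miRNAs of at least 20 CPM were tested and 152 in the control lysates alone, both with fewer miRNAs or samples tested; other settings gave 179 to 238, and leaving out 1 library 223 to 244. With library totals alone 180 of the 239 calls were kept and 2 changed sign, and with upper-quartile scaling 188 and 1. Of the named values that did not pass, these changed sign: with upper-quartile scaling miR-467a-3p (-0.0710), miR-9-5p (-0.0510) and let-7d-3p (-0.0330); with library totals alone miR-467a-3p (-0.0960), miR-9-5p (-0.0747), let-7d-3p (-0.0585) and miR-338-3p (-0.0290); in the controls alone miR-338-3p (-0.123); in the BDNF lysates alone miR-467a-3p (-0.129) and let-7d-3p (-0.0224). With 1 library left out, miR-93-3p ran from -0.166 to 0.0240, miR-467a-3p from -0.00902 to 0.140 and miR-338-3p from -0.00984 to 0.239. No named call changed sign in these settings, and the cause of the changes was not tested. Calls of named miRNAs were lost 30 times over the other settings, 15 of these times for let-7c-5p or miR-99a-5p, and 7 times with a library left out, 5 of them for miR-212-3p and 1 each for let-7c-5p and miR-99a-5p without control 3 of x.

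Whether same-numbered libraries share a culture is not stated. Their deviations from the group means correlated at -0.14 to 0.73 over 263 miRNAs, above 0.1 for 4 of the 6 numbers, which fell short of pairing every number, and for 4 the libraries correlated best with each other, a hint from the data only. With a replicate block the BDNF effect differed for 5 miRNAs rather than 2, let-7a-1-3p (-0.51) and miR-449a-5p (-0.81) among them; with DESeq2 it differed for 3, and with 1 library left out for 1 to 3. A random replicate block in limma gave 231 calls between the batches. Counts of rare miRNAs limit the result: 22 of the 239 calls had a mean below 10 counts per library in 1 batch.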
